A study of Rattus norvegicus with 96 samples.

Results

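The potassium channel subunits measured here were 66 genes, taken by symbol: every gene named Kcn with a class letter or letters (a to h, j, k, ma, mb, n, q, s, t or v) and a number, Kcnd2 and Kcnd3 not counted. They had 104 probe sets among the 31042 non-control probe sets, and 14217 genes in all carried a single symbol. Each gene is represented by its probe set with the highest mean over all 96 arrays. The animals were P rats, which were selectively bred to prefer alcohol. 2 brain regions were taken, with 48 arrays each: the central nucleus of the amygdala (CeA), an output nucleus with a part in fear, stress and withdrawal, and the nucleus accumbens shell (NAc shell), a striatal region of the reward system. Ethanol rats had limited access to ethanol in a binge-drinking scheme and water rats had no ethanol, and the samples date from 1, 6 or 24 h past the last drinking episode. The CeA ethanol groups held 11, 10 and 10 arrays at these hours and the CeA water groups 6, 5 and 6. In the NAc shell, ethanol groups held 10, 10 and 11 arrays and water groups 7, 5 and 5. Age and sex are not given in the labels used here. All groups are of the same line, so no comparison is with a rat that was not bred for drinking, and nothing in the labels says whether both regions came from the same rats or whether arrays are of single rats. The p values therefore measure only the spread between these arrays.

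Potassium channels let potassium out of the cell and pull the membrane towards rest. Voltage-gated (Kv) channels open on depolarization and end the action potential, calcium-activated channels follow spikes and calcium entry, inward rectifiers and two-pore leak channels hold the resting potential, and silent and auxiliary subunits change what the pore-forming subunits do. G protein-gated inward rectifiers (GIRK: Kcnj3, Kcnj5, Kcnj6 and Kcnj9) and the large-conductance calcium-activated channel (BK: Kcnma1 with its beta subunits) are known as direct targets of ethanol. Principal neurons of the NAc shell are medium spiny neurons, which are known for strong inward rectifier currents that keep them silent between bursts of input.

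The 4 members with the largest regional differences by the rule below, 2 in each direction, are shown by the 250 bases before their annotated start, so that the sequences upstream of the genes that differed most can be read next to each other. They are from RefSeq on the GRCr8 assembly. Capitals mark the GC box, GGGCGG, a site known for binding Sp family factors, on either strand.
Kcnj6, higher in the CeA, chr11:47778349-47778598, minus strand: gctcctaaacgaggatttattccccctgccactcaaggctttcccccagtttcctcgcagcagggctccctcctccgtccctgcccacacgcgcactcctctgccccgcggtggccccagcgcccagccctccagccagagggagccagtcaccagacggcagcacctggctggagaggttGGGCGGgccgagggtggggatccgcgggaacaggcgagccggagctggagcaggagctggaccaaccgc
Kcnc2, higher in the CeA, chr7:49587364-49587613, plus strand: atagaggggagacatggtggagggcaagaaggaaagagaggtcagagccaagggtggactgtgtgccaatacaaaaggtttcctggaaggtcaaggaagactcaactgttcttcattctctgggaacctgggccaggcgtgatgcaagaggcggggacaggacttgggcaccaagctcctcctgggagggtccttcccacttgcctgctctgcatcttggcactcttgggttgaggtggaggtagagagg
Kcnj4, higher in the NAc shell, chr7:112954548-112954797, minus strand: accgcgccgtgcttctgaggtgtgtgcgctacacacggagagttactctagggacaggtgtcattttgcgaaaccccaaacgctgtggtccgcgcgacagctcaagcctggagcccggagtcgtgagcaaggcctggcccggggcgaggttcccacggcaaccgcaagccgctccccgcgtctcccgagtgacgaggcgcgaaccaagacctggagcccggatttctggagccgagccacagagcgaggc
Kcnma1, higher in the NAc shell, chr15:351675-351924, plus strand: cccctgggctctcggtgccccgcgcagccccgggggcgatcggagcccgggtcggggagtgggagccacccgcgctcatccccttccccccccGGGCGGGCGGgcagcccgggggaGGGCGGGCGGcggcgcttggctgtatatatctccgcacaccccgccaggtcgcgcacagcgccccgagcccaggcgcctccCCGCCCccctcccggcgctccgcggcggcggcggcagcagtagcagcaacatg
The table held such a sequence for 44 of the 66 members. A GC box was present in 26 of these 44 (59.1%), against 30.5% of the 33469 promoters in the table, and the median GC content was 63.8% against 51.2%. Members of opposite regional direction both held it: 9 of 12 members higher in the CeA in every fit, and 8 of the 16 with a sequence that were higher in the NAc shell in every fit, with median GC contents of 63.2% and 65.6%. The TATA box TATAAA was found in 2 of the 44 (4.55%, against 12.9% of all promoters), the E-box CACGTG in 2 (4.55%, against 5.59%), and the cAMP response element TGACGTCA in 0 (against 1.59% of all). These are matches of letters on either strand, and the measurements here do not bear on binding.

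Before the levels, the arrays themselves were compared. Lower quartiles of all probe sets lay between 5.75 and 5.88 on CeA arrays and between 6.01 and 6.16 on NAc shell arrays, a gap that separate normalization of each region would leave, and dim probe sets read lower in the CeA: the median CeA minus NAc shell difference in water rats was -0.01 for 17572 probe sets above the 40th percentile of both regions and -0.41 for the 11364 under it in both. After all 96 arrays were quantile normalized together, these medians were -0.01 and -0.05. The region and its normalization cannot be told apart, so the regional direction of each member, by the probe set used, was also read after joint normalization. Other probe sets, means over probe sets, ranges of arrays and overlaps are given on the deposited scale unless stated. The Gapdh control probe sets, which read RNA ends, differed too, with a 3 prime minus 5 prime value of 2.91 (SD 0.53, n = 48) in the CeA against 1.81 (SD 0.25, n = 48) in the NAc shell. This difference cannot be told apart from the region either, and the regional values were not adjusted for it. 9 arrays correlated less with the rest of their region: 2 CeA ethanol, 2 CeA water and 5 NAc shell ethanol arrays. In the NAc shell, markers went with the labelled tissue, with 6 of 6 measured medium spiny neuron markers higher there (median difference -2.63, and a mean level of 8.76 to 10.96 on CeA arrays against 11.16 to 12.89 on NAc shell arrays). Markers of CeA neurons were divided: Crh (corticotropin-releasing hormone), Prkcd and Dlk1 were 2.46, 0.69 and 0.45 higher in the CeA, while Nts and Sst, at -0.45 each, were lower. Of 5 pyramidal neuron markers, none passed the level limit in the CeA, while 1 did in the NAc shell.

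A level limit at the 40th percentile of each region's mean log2 values (6.96 in the CeA against 7.09 in the NAc shell) divided the members: 31 lay above it in both regions, Kcnj5 and Kcnk4 in the CeA alone, Kcnj3 and Kcnk6 in the NAc shell alone, and 31 in neither. The dim ones included 3 of the 4 auxiliary Kcne genes (Kcne1, Kcne2 and Kcne3), the Kv7 subunits Kcnq1 and Kcnq3, and Kcnj2, Kcnj12, Kcnj9 and Kcnj10. Low signal on an array does not show that a transcript is absent, and levels of different probe sets are not compared here.

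Between the regions, most subunits differed, and in both directions: in water rats the largest differences were of Kcnj6 and Kcnc2 towards the CeA and of Kcnj4 and Kcnma1 towards the NAc shell. In water rats, 15 of 66 members were higher in the CeA (22.7%) against 41 in the NAc shell (62.1%), where 28.1% and 52.4% of all 31042 probe sets were (limma, adjusted p under 0.05). Joint normalization gave 21 and 28 members, against 35.6% and 41.1% of all. In ethanol rats, 14 members were higher in the CeA and 42 were higher in the NAc shell, where 30.3% and 55.6% of all probe sets were, and after joint normalization 18 and 30, against 38.2% and 44.7%. The members' shares lay near the background on each scale. On each scale, the water and ethanol differences compare different arrays but come from the same fit of all arrays. They therefore share its error estimate, and joint normalization used the same arrays again. The 4 results, called fits here, are thus not independent of each other. In all 4 fits, 12 members were higher in the CeA and 26 were higher in the NAc shell, where 25.9% and 38.5% of all probe sets were. 28 did not keep a call in all 4. The joint scale turned the sign of 9 members in water rats, and 8 of these were under the limit in both regions. Of the 9, Kcnj13 passed on both scales with opposite signs.

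**Figure D1:**
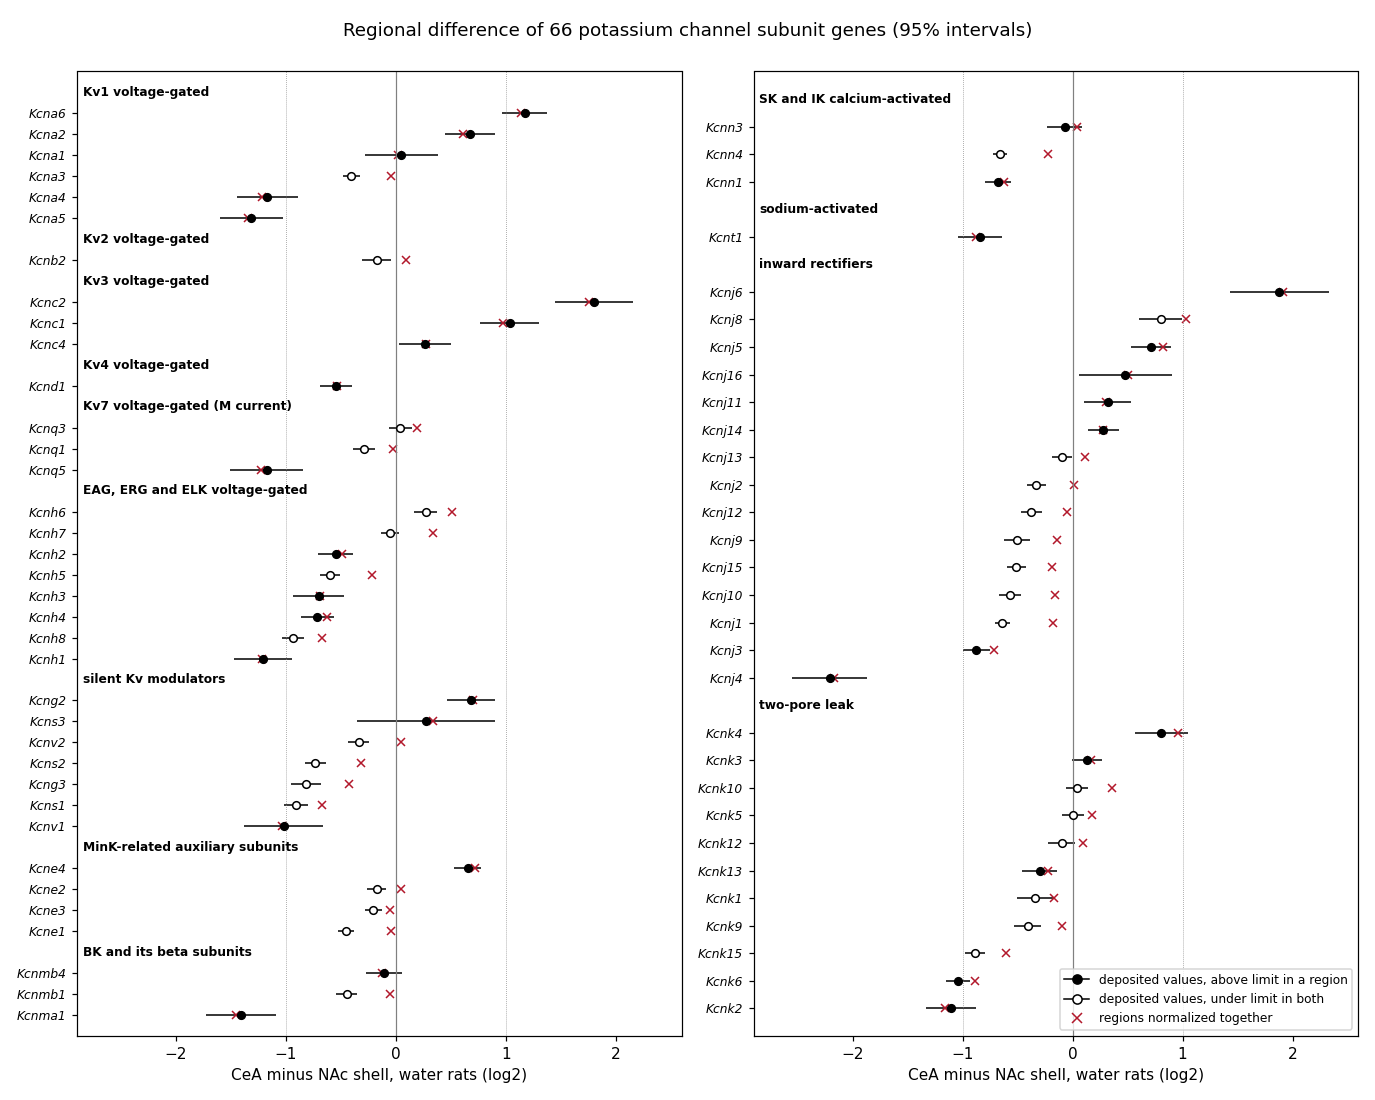
Difference between regions in water rats, CeA minus NAc shell, on the log2 scale, for all 66 members by family. Circles with 95% intervals are deposited values (open where the member was under the level limit in both regions), crosses are values after joint normalization; filled circles and crosses lie close together, while open circles sit left of their crosses.

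A difference of at least 1 log2 was reached by 4 members towards the CeA (3.83% of all probe sets did) and 9 towards the NAc shell (4.72% did). In ethanol rats these counts were 2 (3.86% of all) and 9 (4.26% of all). In tissue RNA, fewer cells of a type and less RNA per cell cannot be told apart, which holds for each regional value here.

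Among Kv1 subunits, which set the threshold and timing of spikes, members went in opposite directions. Kcna6 (Kv1.6) lay between 10.29 and 11.62 on the 17 CeA water arrays and between 9.45 and 10.13 on the 17 NAc shell water arrays, with no overlap. It was 1.17 ± 0.10 (SE) higher in the CeA in water rats (2.25-fold, adjusted p = 9.46e-19) and 0.89 ± 0.07 in ethanol rats. Its other probe sets, dim in both regions, read -0.47 and 0.17 in water rats (-0.02 and 0.51 on the joint scale). Kcna5 (Kv1.5) was the reverse, between 8.16 and 10.25 (median 9.76) in the CeA and between 10.37 and 11.20 (median 10.82) in the NAc shell of water rats. Its difference was -1.31 ± 0.15 (adjusted p = 8.64e-14). Kcna4 (Kv1.4), a subunit with fast inactivation, was -1.17 ± 0.14 (adjusted p = 1.86e-12), and Kcna2, a main axonal subunit, was 0.67 higher in the CeA. The other Kcna2 probe set, above the limit in the NAc shell alone, read the other way, at -0.56. Kcna1 differed by 0.05 ± 0.17 (adjusted p = 0.787), with the largest spread between CeA arrays of any member (SD 0.63). Kcna5, Kcna1 and Kcna6 lie next to each other on 1 chromosome in the RefSeq annotation with no other protein-coding gene between them. By the probe sets used, these neighbours read lower, similar and higher in the CeA. Of 7 such adjacent pairs of members, Kcnj6 with Kcnj15 and Kcnj5 with Kcnj1 were each called in opposite directions in all 4 fits, though Kcnj15 and Kcnj1 were under the level limit.

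Kv3 channels close quickly and let neurons fire at high rates. By the probe sets used, all 3 measured members were higher in the CeA of water rats. Kcnc2 (Kv3.2) lay between 11.90 and 13.42 (median 12.69) on CeA water arrays and between 10.02 and 12.16 (median 10.89) on NAc shell water arrays, so 16 of 17 CeA arrays were above every NAc shell array. The difference was 1.80 ± 0.18 (3.49-fold, adjusted p = 8.64e-16). Of its 5 other probe sets, the one above the limit in the CeA alone differed by 3.62 ± 0.12, and the 4 dim ones by 1.15, 0.73, 0.05 and -0.05, the last pair not passing. Kcnc1 (Kv3.1) was 1.04 ± 0.14 higher (adjusted p = 5.95e-11) and Kcnc4 0.26 ± 0.12 (adjusted p = 0.0394). The other Kcnc4 probe set, above the limit in both regions, did not differ in water rats (0.01, adjusted p = 0.908). In ethanol rats Kcnc2 and Kcnc1 kept the direction at 1.48 ± 0.13 and 0.82 ± 0.10, and Kcnc4 did not pass (0.03 ± 0.09).

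Of the 8 EAG, ERG and ELK genes, which shape resting excitability and firing, 6 were higher in the NAc shell in all 4 fits (38.5% of all probe sets were) and Kcnh6, dim in both regions, was higher in the CeA. Of the 3 Kv7 genes, 1 was higher in the NAc shell in all 4 fits. Kcnh1 (EAG1) lay between 7.57 and 9.25 (median 8.97) on CeA water arrays and between 9.60 and 10.31 (median 10.11) on NAc shell ones, with no overlap, at -1.21 ± 0.13 (adjusted p = 4.50e-14). The ELK genes Kcnh3 and Kcnh4 differed by -0.70 ± 0.12 and -0.71 ± 0.07. Kcnq5, an M current subunit that slows repetitive firing, ranged from 9.29 to 11.75 (median 10.98) in the CeA and from 11.66 to 12.54 (median 12.13) in the NAc shell, at -1.18 ± 0.17 (adjusted p = 1.18e-09), with 15 of 17 CeA arrays under all NAc shell arrays. The other Kcnq5 probe sets, dim in both regions, read -0.32 and -0.10 in water rats (-0.16 and 0.10 on the joint scale). Kcnd1, the Kv4 gene counted here, was at -0.55 ± 0.07. Kcnb2, the Kv2 gene, was dim and turned its sign with joint normalization.

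Silent Kv subunits form no channel alone and modify Kv2 channels. 4 of 7 were higher in the NAc shell in all 4 fits (Kcnv1, Kcns1, Kcns2 and Kcng3), of which Kcnv1 alone was above the level limit. Kcnv1 lay between 8.01 and 10.05 (median 8.90) on CeA water arrays and between 9.51 and 10.68 (median 10.10) on NAc shell water arrays, at -1.02 ± 0.18 (adjusted p = 3.84e-07), and its groups overlapped. Kcng2 was 0.69 ± 0.11 higher in the CeA, with other probe sets at -0.51 and 0.16. Kcns3 had the widest spread of all members in the NAc shell (SD 1.26) and differed by 0.27 ± 0.32 (adjusted p = 0.429). Of the 4 auxiliary Kcne genes, Kcne4, which reduces Kv1 currents, was 0.65 ± 0.06 higher in the CeA, and the other 3 did not keep a call.

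By the probe sets used, calcium-activated channels were higher in the NAc shell where they differed. Kcnma1, the BK pore, ranged from 9.79 to 11.55 (median 10.97) on CeA water arrays and from 11.43 to 12.63 (median 12.27) on NAc shell water arrays. Its difference was -1.41 ± 0.16 (2.65-fold, adjusted p = 4.02e-13), and 14 of 17 CeA arrays were under all NAc shell arrays. The other Kcnma1 probe sets, dim in the CeA, read -0.19 and -0.35 in water rats (0.15 and -0.21 on the joint scale). The neuronal BK beta subunit Kcnmb4, which slows BK activation and changes how the channel responds to ethanol, differed by -0.11 ± 0.08 in water rats (adjusted p = 0.222) and by -0.34 ± 0.06 in ethanol rats (adjusted p = 4.50e-07). That the ethanol value passed and the water value did not is not in itself a difference, and the test of the ethanol effects between regions, given below, did not pass. Kcnmb1 was dim in both regions. Kcnn1, an SK channel of the afterhyperpolarization, was at -0.68 ± 0.06, Kcnn3 at -0.07 ± 0.08 (adjusted p = 0.385), and the sodium-activated Kcnt1 at -0.85 ± 0.10 with both of its other probe sets in the same direction (-0.69 and -0.46).

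The 15 inward rectifiers held the largest differences in both directions. Kcnj4 (Kir2.3), a strong inward rectifier, lay between 6.28 and 8.43 (median 7.79) on CeA water arrays and between 9.10 and 10.25 (median 9.72) on NAc shell water arrays. Groups did not overlap in water rats or in ethanol rats, and the difference was -2.21 ± 0.17 in water rats (4.63-fold, adjusted p = 2.65e-21) and -2.05 ± 0.13 in ethanol rats. Of the other strong inward rectifiers, Kcnj2 and Kcnj12 were dim and lost their call on the joint scale, and Kcnj14 was 0.28 ± 0.07 higher in the CeA.

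The GIRK genes did not share a direction. Kcnj6 (GIRK2) lay between 8.85 and 10.24 (median 9.80) on CeA water arrays and between 6.73 and 9.12 (median 7.71) on NAc shell water arrays, 1.88 ± 0.23 higher in the CeA (3.68-fold, adjusted p = 3.15e-12). 14 of 17 CeA water arrays were above all NAc shell ones. In ethanol rats it was 1.53 ± 0.17 higher, with 1 NAc shell array at 11.35, above all CeA arrays. That array, number 44 at 6 h, is among the 9 of low correlation and read 8.61 for pyramidal neuron markers, where the regular NAc shell arrays read 6.25 to 7.38. Without the 9 arrays the Kcnj6 difference was 1.94 in water rats and 1.70 in ethanol rats. Its 3 other probe sets read -0.69, -0.53 and 0.30, all under the limit in the CeA. Kcnj5 (GIRK4) was 0.71 ± 0.09 higher in the CeA (adjusted p = 4.04e-11), and its other, dim probe set read -0.67. Kcnj3 (GIRK1), the subunit that most neuronal GIRK channels contain, was the reverse: 6.07 to 6.73 (median 6.33) on CeA water arrays against 6.78 to 7.61 (median 7.19) on NAc shell ones, with no overlap, at -0.88 ± 0.06 (adjusted p = 3.42e-24). It was -0.72 after joint normalization and was above the level limit in the NAc shell alone. Its 2 other probe sets, dim in both regions, read 0.34 and -0.45. Kcnj9 (GIRK3) was dim in both regions, at -0.50 ± 0.06, which shrank to -0.14 on the joint scale. Of the KATP pore subunits, Kcnj8, a vascular subunit, was 0.80 ± 0.10 higher in the CeA while under the level limit, and Kcnj11 was 0.32 ± 0.11 higher there in water rats and 0.06 ± 0.08 in ethanol rats (adjusted p = 0.498), where another of its probe sets, above the limit in the NAc shell alone, read -1.50 in water rats. Among 5 glial and epithelial members, Kcnj16 was 0.48 ± 0.21 higher in the CeA of water rats (adjusted p = 0.0347) and did not pass in ethanol rats (0.24 ± 0.16). Its other probe set, above the limit in both regions, read 0.97 in water rats and 0.79 in ethanol rats and passed in both. Kcnj1, Kcnj10 and Kcnj15, all dim, read higher in the NAc shell in all 4 fits. Astrocyte and oligodendrocyte markers were mostly higher in the CeA, 5 of 7 and 5 of 6, and their part in these values was not tested.

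Two-pore channels carry the leak current at rest. Kcnk2 (TREK-1), opened by stretch and fatty acids, lay between 9.74 and 11.12 (median 10.56) on CeA water arrays and between 11.16 and 12.21 (median 11.57) on NAc shell water arrays, with no overlap, at -1.11 ± 0.12 (adjusted p = 1.03e-14). Kcnk6 was at -1.04 ± 0.06 (adjusted p = 1.73e-31), again with no overlap, while its other, dim probe set read 0.18. Kcnk4 (TRAAK) was 0.81 ± 0.12 higher in the CeA. The acid-sensitive Kcnk3 (TASK-1) differed by 0.13 ± 0.07 (adjusted p = 0.0811), and its other probe sets by -0.55 and -0.65. Of 11 members, 1 was higher in the CeA and 3 were higher in the NAc shell in all 4 fits.

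**Figure D2:**
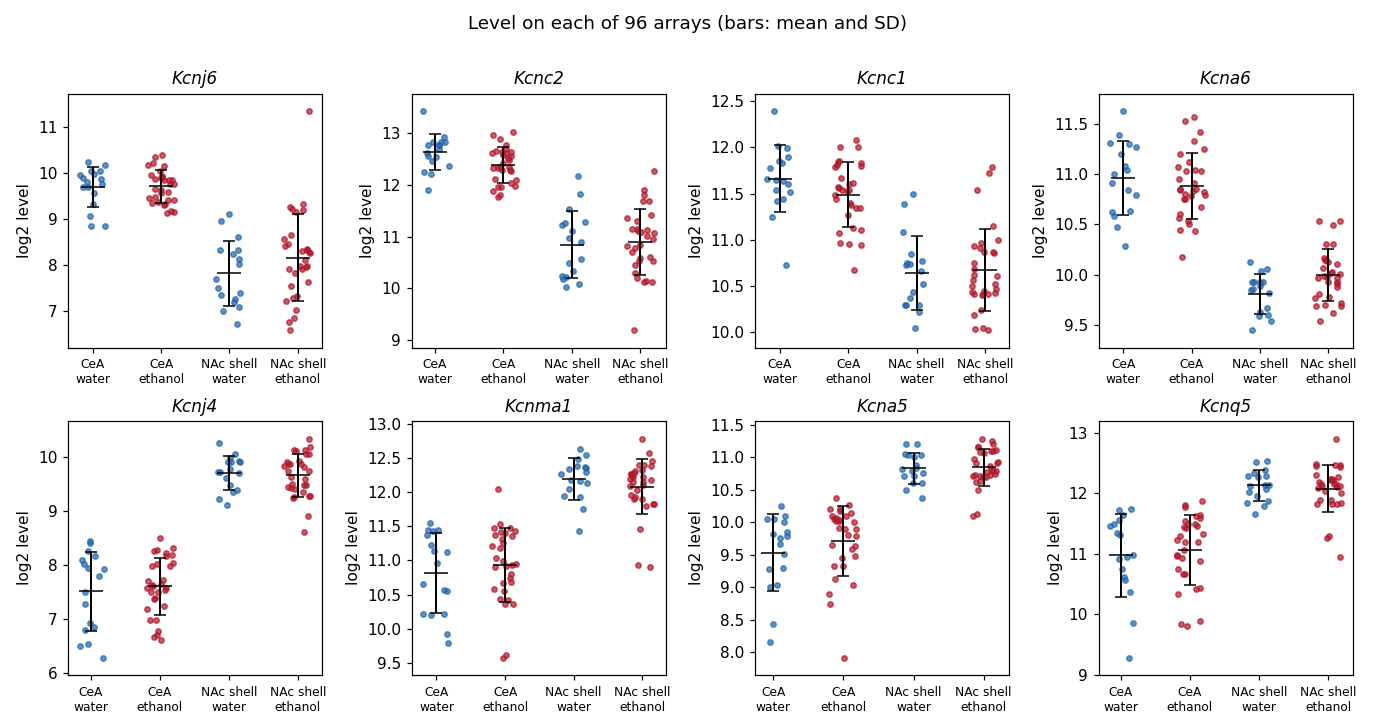
Log2 level on every array for 8 members, by region and treatment (17 water and 31 ethanol arrays per region). Black bars are the group mean and SD, and each vertical axis has its own range. The top row (Kcnj6, Kcnc2, Kcnc1 and Kcna6) is higher in the CeA and the bottom row (Kcnj4, Kcnma1, Kcna5 and Kcnq5) in the NAc shell, with water and ethanol arrays of a region lying together.

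Over the whole set, the groups of water arrays did not overlap between regions for 22 of 66 members, against 26.5% of all probe sets, and those of ethanol arrays for 11 of 66, against 18.7%. Overlap was read on the deposited scale only. All but Kcna6 of the 22 were higher in the NAc shell, and most were under the level limit in both regions, where probe sets read lower in the CeA. Kcna3, Kcne1 and Kcnmb1 among these did not pass on the joint scale. The choice of probe set mattered. Of the 38 other probe sets of 23 members, 23 had the sign of the one used in water rats. So did all 6 that were above the level limit in both regions. Among these, Kcnc4 (0.01, adjusted p = 0.908) and Kcnj11 (0.06, adjusted p = 0.554) were near 0 and did not pass. In ethanol rats they read -0.01 and -0.06. All these signs are on the deposited scale, where dim probe sets read lower in the CeA. On the joint scale in water rats, a dim Kcna6 probe set went from -0.47 to -0.02 and a dim Kcnc2 one from -0.05 to 0.41. Both moved towards the one used. Dim probe sets of Kcnma1 (-0.19 to 0.15) and Kcnq5 (-0.10 to 0.10) moved away from it. With the mean over all probe sets of a gene, also on the deposited scale, Kcnj6 fell from 1.88 to 0.24 in water rats and Kcna6 from 1.17 to 0.29. Kcnma1 then read -0.65, Kcnq5 -0.53 and Kcnk6 -0.43, and Kcnj4 read -1.42. All kept their direction and passed.

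The spread between arrays differed between regions as well. Of 12 members above the limit in both regions with a difference of at least 1 log2, 10 had the larger residual SD in the region where they were lower, as did 57.6% of all 1377 probe sets of that kind. This comparison was chosen after the values were seen. Without the 1 log2 condition it held for 19 of 31 members (61.3%), against 52.2% of 17572 probe sets. Among these, it held for 3 of 8 members called towards the CeA in all 4 fits. Of those called towards the NAc shell in all 4 fits, 11 of 14 followed it. CeA arrays also had the larger median SD over the 17572 probe sets (0.216, against 0.196). The part of this general gap in the pattern was not tested. Kcnj4 had an SD of 0.61 in the CeA against 0.37 in the NAc shell, Kcnma1 0.56 and 0.38, and Kcnq5 0.61 and 0.36, while Kcnj6 had 0.37 and 0.88 and Kcnc2 0.35 and 0.67. Medium spiny neuron markers ranged over 8.76 to 10.96 on CeA arrays, and their part in the spread was not tested.

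Proteins that work with these channels were read from a list of 20 genes, of which 17 were measured. 12 were higher in the NAc shell and 3 in the CeA of water rats (10 and 3 on the joint scale), where 52.4% and 28.1% of all probe sets were (41.1% and 35.6% on the joint scale). None reached 1 log2. Those named here were picked by their values. Kcnab1, a cytoplasmic beta subunit of Kv1, was at -0.99 ± 0.12, and Hcn2, a subunit of the hyperpolarization-activated cation channel, at -0.80 ± 0.06. Cntn2, which clusters Kv1 next to nodes of Ranvier, was 0.74 ± 0.10 higher in the CeA. The KATP regulatory subunits differed in direction, Abcc8 at -0.55 ± 0.07 and Abcc9 at 0.43 ± 0.11.

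The second question was whether subunits differed between ethanol and water rats. In each region 33 members were above the level limit and tested. None passed over the mean of the 3 hours in the CeA, where 0% of 18625 probe sets did, or in the NAc shell, where 0% of 18625 did. None passed at 1, 6 or 24 h in either region (0% of all probe sets each), or in the ethanol by hour interaction of either region (0% each). At an unadjusted p under 0.05, the CeA had 1 member over the mean of hours (8.16% of all probe sets) and 4 at 6 h (8.22%). The NAc shell had 1 over the mean (11.1%) and 1 at 24 h (3.74%). There were 0 in the CeA at 1 h (5.43% of all probe sets) and 24 h (0.655%), and 0 in the NAc shell at 1 h (1.88%) and 6 h (5.23%). The precision differed by hour. The 95% interval of the mean effect lay within 0.5 log2 of 0 for 32 of 33 members in the CeA against 30 of 33 in the NAc shell, but at 6 h for 9 of 33 and 23 of 33. The members' median difference was -0.02 in the CeA against 0.02 in the NAc shell, with 14 and 20 of 33 above 0, against 49.3% and 53.4% of all probe sets.

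**Figure D3:**
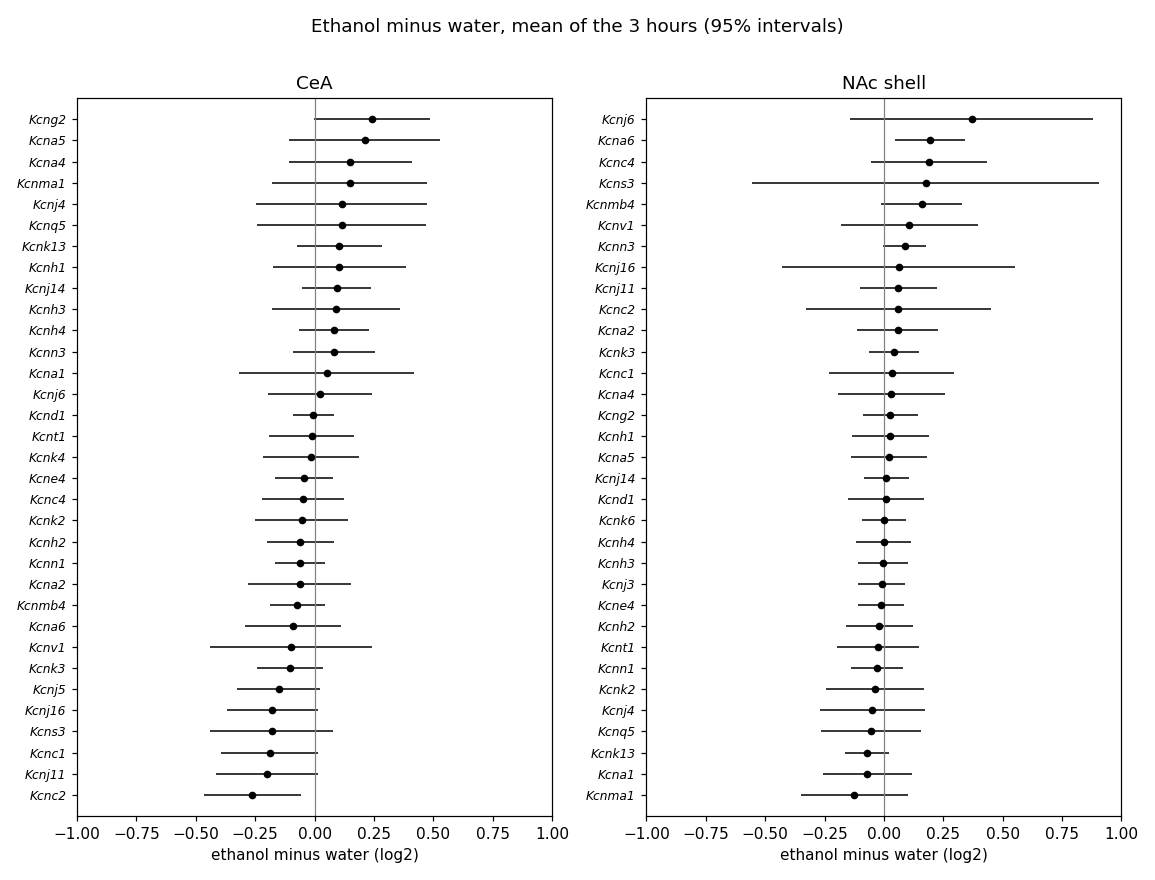
Ethanol minus water on the log2 scale, mean of the 3 hours, for the 33 members tested in each region, with 95% intervals not adjusted for the number of members. No member passed the adjusted test; the widest interval is that of Kcns3 in the NAc shell.

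Of the ethanol-sensitive channels, the GIRK genes showed no difference past the test. Kcnj6 in the CeA differed by 0.02 ± 0.11 over the hours (95% interval -0.20 to 0.24), with -0.07 at 1 h, 0.35 at 6 h and -0.22 at 24 h. In the NAc shell it was 0.37 ± 0.25 higher in ethanol rats (interval -0.14 to 0.88, adjusted p = 0.598), with 21 of 31 ethanol arrays above the water mean of their hour. Kcnj5 in the CeA was at -0.15 ± 0.09 (adjusted p = 0.655). Kcnj3 in the NAc shell ranged from 6.78 to 7.43 on 7 water and from 7.08 to 7.43 on 10 ethanol arrays at 1 h, and from 7.17 to 7.61 on 5 water and from 6.88 to 7.38 on 11 ethanol arrays at 24 h. Its difference thus went from 0.14 ± 0.08 at 1 h to -0.16 ± 0.09 at 24 h, the smallest interaction p of the members in that region (unadjusted p = 0.0459, adjusted p = 1). Kcnj9, under the limit and outside these tests, differed by 0.18 ± 0.06 in the CeA (unadjusted p = 0.00228, adjusted p = 0.423) when the filter was dropped, and its NAc shell value was 0.03 ± 0.05.

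No BK gene passed the adjusted test either. Kcnma1 differed by 0.15 ± 0.16 in the CeA (interval -0.18 to 0.47) and by -0.12 ± 0.11 in the NAc shell (interval -0.35 to 0.10). Kcnmb4 differed by -0.07 ± 0.06 in the CeA and by 0.16 ± 0.09 in the NAc shell (adjusted p = 0.485), and the difference between these effects, -0.23 ± 0.10, had an unadjusted p of 0.0280 and an adjusted p of 0.486. That difference was -0.14 without the 9 arrays of low correlation. On array 44, Kcnmb4 read 11.39, and without those arrays its NAc shell value was 0.09. Kcnmb1 was at -0.02 ± 0.04 and -0.03 ± 0.04 without the filter.

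In the CeA, the member with the smallest p over the 3 hours was Kcnc2. It lay between 11.90 and 13.42 (median 12.69) on 17 water arrays and between 11.77 and 13.02 (median 12.34) on 31 ethanol arrays, and 23 of 31 ethanol arrays were under the water mean of their hour. Ethanol minus water was -0.26 ± 0.10 (interval -0.47 to -0.06, unadjusted p = 0.0126, adjusted p = 0.519). The next 3 were Kcng2 at 0.24 ± 0.12, Kcnj16 at -0.18 ± 0.10 and Kcnj11 at -0.20 ± 0.11, with adjusted p from 0.614 to 0.628. A second Kcnc2 probe set above the limit read -0.07 ± 0.13. The title numbers of the CeA arrays pass through the 3 hours in 4 runs. Within the first 3 of them Kcnc2 read -0.48 (5 ethanol and 3 water arrays), -0.30 (10 and 6) and -0.09 (10 and 6). The last run had water arrays at 6 h alone, where Kcnc2 read -0.55 with 2 ethanol and 2 water arrays. Of these, ethanol array 30 and water arrays 16 and 17 are of low correlation. All 4 CeA arrays of low correlation are of this last run. With the runs as a block it read -0.28 (unadjusted p = 0.0014, adjusted p = 0.11), and 0.258% of all probe sets then passed with no member among them.

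At 6 h in the CeA, 4 members had an unadjusted p under 0.05, and each was lower in ethanol rats. Kcnj11, the KATP pore of neurons, lay between 9.90 and 11.14 (median 10.30) on the 5 water arrays, and ethanol minus water was -0.50 ± 0.19 (adjusted p = 0.571). Kcnc1 was at -0.44 ± 0.18, Kcnc2 at -0.42 ± 0.18 and Kcnk3 at -0.26 ± 0.13, all at the same adjusted p. The highest value of Kcnj11, Kcnc1 and Kcnc2 was that of water array 16 (11.14, 12.39 and 13.42), which is among the 9 of low correlation. Without those arrays the 6 h values were -0.26, -0.28 and -0.27, and -0.20 for Kcnk3, and no adjusted p was under 0.99. Oligodendrocyte markers were lower in ethanol rats at this hour as well (6 of 6 below 0, median -0.36), as were microglia (6 of 6, median -0.30) and vessel markers (7 of 7, median -0.17). CeA neuron markers were higher (0 of 4 below 0, median 0.48), and 5 of 7 astrocyte markers were below 0 (median 0.00). These marker values include the low-correlation water arrays 16 and 17. CeA neuron markers read 8.55 and 8.51 on these (mean of the 5 water arrays 9.07) and oligodendrocyte markers 13.72 and 13.58 (mean 13.32). Microglia markers read 8.81 and 8.41 (mean 8.45) and vessel markers 8.81 and 9.06 (mean 8.78). No marker passed the adjusted test, and their part in these values was not tested. At 1 h Kcnj14 (0.20), Kcnmb4 (-0.15), Kcna1 (0.46 ± 0.31) and Kcne4 (0.14) came first by p, with adjusted p of 0.91 or more. At 24 h the first 4 by p were Kcnh4 (0.19), Kcng2 (0.28), Kcnj6 (-0.22) and Kcne4 (-0.11), each with an adjusted p of 1.

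**Figure D4:**
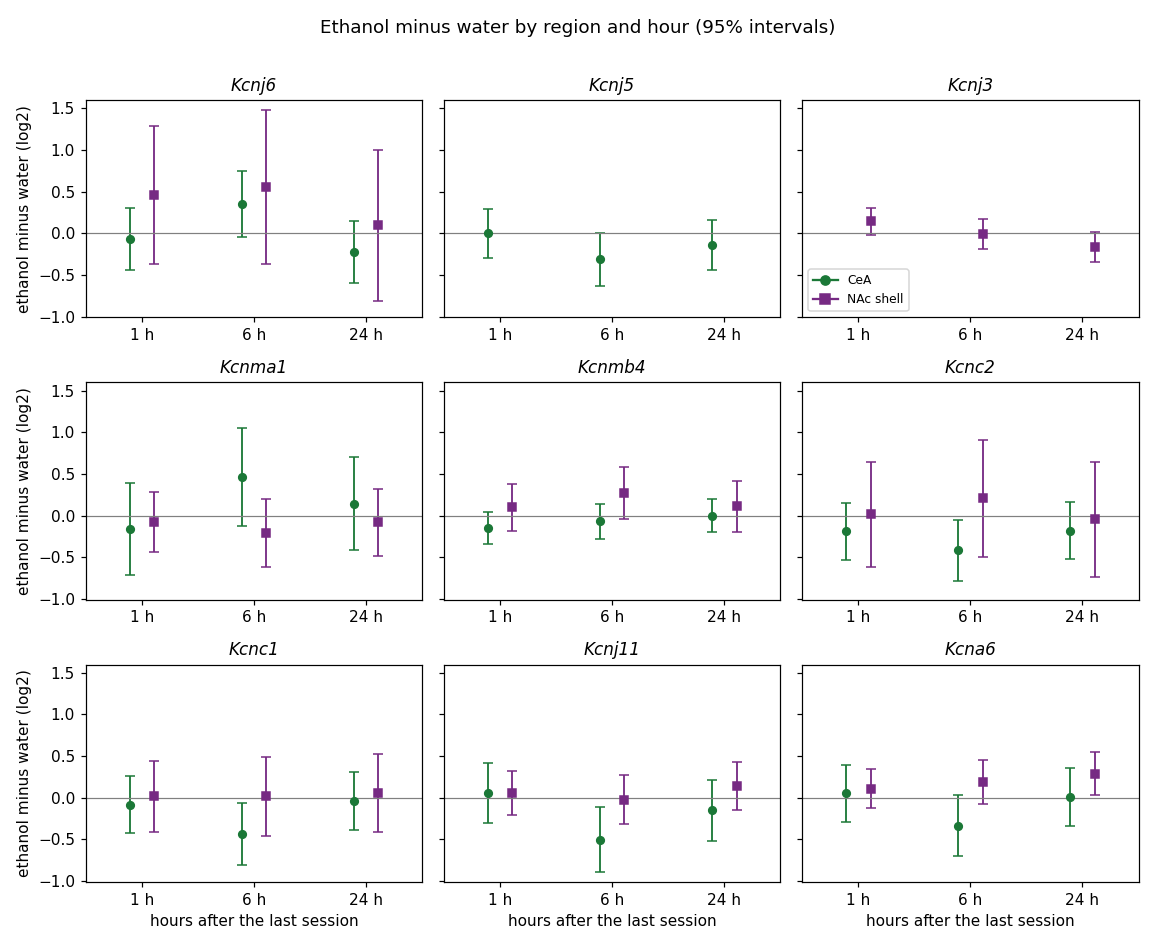
Ethanol minus water on the log2 scale at 1, 6 and 24 h in the CeA (circles) and NAc shell (squares), with 95% intervals, for the GIRK and BK members tested and for Kcnc2, Kcnc1, Kcnj11 and Kcna6. Kcnj5 was tested in the CeA only and Kcnj3 in the NAc shell only; the unadjusted intervals include 0 except those of Kcnc2, Kcnc1 and Kcnj11 in the CeA at 6 h, below it, and of Kcna6 in the NAc shell at 24 h, above it.

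In the NAc shell the smallest p over the hours was that of Kcna6. It lay between 9.45 and 10.13 (median 9.86) on 17 water arrays and between 9.55 and 10.54 (median 9.98) on 31 ethanol arrays, and 24 of 31 ethanol arrays were above the water mean of their hour. The difference was 0.19 ± 0.07 (interval 0.05 to 0.34, unadjusted p = 0.0105, adjusted p = 0.319), with 0.11 at 1 h, 0.19 at 6 h and 0.29 at 24 h. Without the 9 arrays it was 0.13. Kcnn3 (0.09 ± 0.05), Kcnmb4 and Kcnc4 (0.19 ± 0.12) followed, and Kcnc4 was at 0.09 without the 9 arrays. The other Kcnc4 probe set read 0.02 on all arrays. At 1 h the 4 smallest p values belonged to Kcnj3, Kcnk6 (-0.11), Kcnj6 (0.46 ± 0.41) and Kcnj14 (-0.08). At 6 h they belonged to Kcnmb4 (0.27), Kcnc4 (0.32), Kcna6 and Kcna1 (-0.21), and Kcnc4 was at 0.06 without the 9 arrays. At 24 h they belonged to Kcna6, Kcnk13 (-0.16), Kcnj3 and Kcnn3 (0.11), with an adjusted p of 0.999.

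The ethanol effects themselves were compared between regions for the 31 members above the limit in both. None passed, where 0% of 17572 probe sets did. Kcna6 had the smallest p, with a CeA minus NAc shell difference of effects of -0.28 ± 0.13 (unadjusted p = 0.0263, adjusted p = 0.478), followed by Kcnmb4, Kcnj11 (-0.26) and Kcnk13 (0.17). The interaction with hour in the CeA was led by Kcne4, Kcnj6, Kcnj11 and Kcnh2, with adjusted p = 0.979 each, and in the NAc shell, after Kcnj3, by Kcnk6, Kcnj14 and Kcnk13.

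Hour alone moved no member past the test. Among CeA ethanol arrays 0.0591% of probe sets passed, among NAc shell ethanol arrays 0.0376%, and among water arrays of either region 0%. Kcne4 had the smallest p among members in CeA ethanol, NAc shell ethanol and NAc shell water arrays, with 6 h minus 1 h values of -0.21, -0.10 and -0.14, 24 h minus 1 h values of -0.01, 0.08 and 0.19, and unadjusted p of 0.0391, 0.0473 and 0.0061 (adjusted p = 1, 0.989 and 1). In CeA ethanol arrays Kcnj6 (0.17), Kcnj14 (0.10) and Kcns3 (0.16) followed, in NAc shell ethanol arrays Kcna1 (-0.34), Kcnk6 (0.16) and Kcnj14 (0.09), and in NAc shell water arrays Kcnj14 (0.00), Kcnj3 (0.17) and Kcnk13 (-0.09), each given as 6 h minus 1 h. Kcnj14 (0.32) led in CeA water arrays, followed by Kcnj11 (0.48), Kcnc1 (0.29) and Kcna5 (-0.57), also as 6 h minus 1 h and each with an adjusted p of 0.934. Without the low-correlation arrays Kcna5 read -0.05 there. Of the channel partners, none passed in any ethanol comparison. The smallest p was that of Cntnap2, which anchors Kv1 beside nodes, at -0.18 ± 0.06 in the CeA over the hours (unadjusted p = 0.00334, adjusted p = 0.396).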

How the data were processed

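Per the submitters' processing notes the authors used RMA, and the values they deposited, which were used as they stand, are on a log2 scale. The RMA version and any filter are not given in the sources used here. Per the labels, total RNA (25 ng) was amplified in 2 cycles and labelled with biotin. Symbols came from GEO's platform annotation and were updated by Entrez ID. The tests were run with limma 3.58.1 in R 4.3.3 (group means, moderated variances with a trend, Benjamini-Hochberg over all probe sets tested, adjusted p under 0.05). Regions were compared in 1 fit of all 96 arrays without a filter, taking arrays of the regions as independent. Ethanol, hour and their interaction were tested within each region on the 18625 probe sets above the 40th percentile. Errors are SE of the fit unless called SD. An hour or interaction p tests all 3 hours jointly. The number of arrays limits the precision.

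The members, families, lists and naming rule were chosen with earlier results of these data known. Named genes are members differing by at least 1 log2 between regions in water rats, the 4 smallest p values of each ethanol, interaction and hour test, and the GIRK and BK genes; other members illustrate their family, and the rule's clause on the highest-level member of a family was not used, since levels of different probe sets are not comparable. Alternatives were joint quantile normalization, other filters, the mean over probe sets, array weights, the Gapdh difference as a covariate, blocks by title number or by run, leaving out 9 arrays whose correlation with their region was over 3 scaled median absolute deviations low, and leaving out each array. The Gapdh covariate and the blocks were used in the ethanol, interaction and hour tests within a region only. The fits were tested on simulated data. Numbers shared by ethanol and water titles were checked for pairing: deviations of same-numbered arrays correlated by 0.0725 on average over 17 CeA pairs (-0.781 to 0.748) and by -0.326 over 3 NAc shell pairs, so they were not taken to pair arrays. Promoter windows and gene order are from RefSeq.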

Additional observations from a re-analysis of the deposited data

Results flagged for a closer look

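Of 310 group and member combinations with 4 to 10 arrays, 16 (5.16%) held 1 array whose gap to the nearest, divided by the group's range, was above Dixon's 95% critical value. The nominal rate of that limit is about 1 in 20 and was not checked here. Array 33 of the NAc shell ethanol rats at 1 h read 10.9 for Kcnma1 (nearest array 11.83), 10.68 for Kcnk2 (11.42), 9.51 for Kcnh1 (9.973) and, upwards, 10.07 for Kcnc4 (9.316). Array 43 at 6 h read 10.94 for Kcnma1 (11.79), 10.94 for Kcnq5 (11.82) and 7.012 for Kcne4 (7.315), and array 44 at 6 h read 11.39 for Kcnmb4 (10.37). These 3 arrays are among the 9 of low correlation. Their medium spiny neuron markers read 11.43, 11.16 and 11.96, where the regular NAc shell arrays read 11.36 to 12.89.

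In CeA water rats at 1 h, array 1 read 11.22 for Kcna1 (nearest 10.08) and 9.037 for Kcnj14 (9.491), array 12 read 7.198 for Kcnk13 (7.61), and array 10 read 5.147 for the dim Kcnj9 (4.997). Kcnj9 was also apart on CeA water array 17 at 6 h, at 5.164 (5.076). Kcnj6 read 9.08 on CeA water array 8 at 24 h (9.757). In CeA ethanol rats, Kcnmb1 read 5.416 on array 4 at 24 h (5.063) and Kcnv1 read 10.53 on array 10 at 6 h (9.406).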

How the results depend on the processing

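No regional value of a member that reached 1 log2, no ethanol value of a member named by its p, and no count reversed. Kcnn3, above the limit in both regions, went from -0.07 to 0.04 in water rats with joint normalization and passed on neither scale. Among the other members, joint normalization turned a called direction of Kcnj13 in water rats, from -0.10 to 0.11 (adjusted p = 0.0428 and 0.023), and of Kcne2 in ethanol rats, from -0.13 to 0.08 (adjusted p = 0.000209 and 0.0101), both under the level limit. Restricted to probe sets above the limit in both regions, 26 members passed in water rats (15 higher in the NAc shell) and 24 in ethanol rats (8 higher in the CeA, 16 in the NAc shell), since 31 were tested. With the mean over all probe sets of a gene, 2 members reached 1 log2 towards the CeA and 5 towards the NAc shell in water rats, and 1 and 5 in ethanol rats. Leaving out each array in turn gave 53 to 57 members in water rats and 54 to 57 in ethanol rats, and 0 in each ethanol and hour test. Without the 9 low-correlation arrays 55 and 54 passed, and in water rats 6 rather than 9 reached 1 log2 towards the NAc shell. With title numbers as a replicate block (correlation 0.0733 in the CeA against -0.294 in the NAc shell), 0 members passed in any ethanol or hour test. Array weights raised the probe sets called over the CeA mean from 0 to 74 and the run block to 48, with 0 members among them; in CeA ethanol arrays across hours these counts were 27 and 18 against 11, with 0 members.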
